A study of Mus musculus with 5 samples.

Results

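Tfeb and 8 genes of the lysosome (Psap, Ctsd, Ctsb, Ctsl, Lamp1, Lamp2, Cd63 and Npc2) were followed through the oligodendrocyte (OL) lineage of the adult mouse corpus callosum. The 9 genes were taken by name from the expression matrix, in which all 9 are among the 11733 rows. Cells came from 2 mice at P60 that carry Emx1::Cre and Sox10::Cre with the LoxP-GFP-STOP-TdTom reporter on a mixed CBA and C57BL/6 background, and whose tissue was pooled before sorting. TdTom+ cells descend from the dorsal forebrain domain marked by Emx1::Cre, and GFP+ cells were taken as derived from ventral domains. Each origin gave 1 droplet library, TdTom+ with 1901 cells and GFP+ with 952 cells, so no difference has a replicate check and no p-value is given. The 3 spinal cord samples of the series were not analysed here.

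Each cell carries 1 of 12 labels given by the authors: OPC (OL precursor cells), COP/NFOL (committed precursors and newly formed OLs), MFOL1 and MFOL2 (myelin-forming OLs), MOL2/MFOL, and the mature OL (MOL) labels MOL1, MOL2/4, MOL2a, MOL2b, MOL6a, MOL6b and MOL4-5/6. The labels were made by clustering the same cells on their expression, so a difference between labels is a description of how the clusters were drawn. Levels are UMIs (molecules tagged with a unique identifier) of a gene scaled to the total UMIs of the label or library, written CPM (counts per 1e+06). Their exact Poisson intervals at 95% cover counting error only, and neither the spread between mice nor that between libraries.

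The lysosome is the acidic organelle in which proteins, lipids and glycans from endocytosis and autophagy are broken down. TFEB, a basic helix-loop-helix leucine zipper transcription factor, is held in the cytoplasm when mTORC1 is active on the lysosomal surface and enters the nucleus when it is not, where it binds E-box motifs near the start of many lysosomal and autophagy genes. In the OL lineage TFEB is known to restrain myelination, and in newly formed OLs it is known to act through Bbc3, the gene of the death-promoting protein PUMA. Lysosomal exocytosis is also known to deliver the myelin protein PLP to the OL surface.

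Tfeb lies on chromosome 17 (47737030 to 47792419), Psap on 10 (60277627 to 60302597), Ctsd on 7 (142375911 to 142388038), Ctsb on 14 (63122462 to 63145923), Ctsl on 13 (64359337 to 64370890), Lamp1 on 8 (13159161 to 13175338), Lamp2 on X (38401357 to 38456454), Cd63 on 10 (128900989 to 128912822) and Npc2 on 12 (84754562 to 84773152), in mm10 (GRCm38) with GENCODE vM21. The 3′ end of Ctsd, where these reads fall, overlaps the model Gm49369 on the same strand, which is no row of the matrix. The 3′ ends of Lamp1 and Ctsb overlap Grtp1 and Fdft1 on the opposite strand, and whether reads were counted by strand is not given in the sources used here. Grtp1 was at 1.82 CPM in TdTom+ and 1.12 CPM in GFP+ cells, and Fdft1 at 41.7 and 40.2 CPM.

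Because TFEB binds E-boxes, the promoter windows of the members were searched for the letters CACGTG, which read the same on both strands, and for the longer palindrome TCACGTGA that contains them. A window runs from 250 bases before to 50 bases after a RefSeq transcription start (GRCm38.p6). Windows were found for 8 members, and there is none for Ctsb. The RefSeq start of Cd63 (128909345) lies inside its GENCODE gene, which begins at 128900989 on the plus strand. The window of Ctsl ends at 64370770, short of its GENCODE start at 64370890 on the minus strand. These 2 GENCODE starts were not searched. CACGTG stood in the windows of 3 of the 8, Lamp1, Ctsd and Ctsl, against 8.09% of 27025 genes with a window, and TCACGTGA in that of Ctsd alone, against 1.12% of all genes. Lamp1 holds 4 copies of CACGTG, at 61, 45, 28 and 15 bases before the start, and 6 of the 27025 genes hold 4 or more. The 250 bases before the start of Lamp1 (chr8:13158911-13159160, plus strand) and of Cd63 (chr10:128909095-128909344, plus strand) are shown because these 2 genes followed different labels below, with CACGTG in capitals:
Lamp1: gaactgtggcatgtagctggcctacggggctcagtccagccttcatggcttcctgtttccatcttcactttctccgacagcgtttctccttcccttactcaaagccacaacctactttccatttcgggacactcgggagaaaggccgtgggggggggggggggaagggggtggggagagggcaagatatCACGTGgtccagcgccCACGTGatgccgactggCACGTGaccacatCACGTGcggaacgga
Cd63: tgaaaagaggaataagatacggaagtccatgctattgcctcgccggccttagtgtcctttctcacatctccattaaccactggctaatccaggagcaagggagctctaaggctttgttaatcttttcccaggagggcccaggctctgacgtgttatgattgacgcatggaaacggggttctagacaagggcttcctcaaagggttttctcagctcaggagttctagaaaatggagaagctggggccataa

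In Ctsd the copies begin 245 and 98 bases before the start (chr7:142388057-142388077 and chr7:142387910-142387935, minus strand), the second within TCACGTGA. In Ctsl the single copy begins 236 bases before it (chr13:64370741-64370766, minus strand). The proximal copy of Ctsd lies in an annotated exon and that of Ctsl reaches into one. Each is given with its flanks, read on the strand of its gene:
Ctsd distal: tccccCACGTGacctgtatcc
Ctsd proximal: gcccgcgtctCACGTGacccgttgag
Ctsl: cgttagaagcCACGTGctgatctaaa

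The 3 windows of Tfeb, the 2 of Psap and those of Lamp2, Cd63 and Npc2 hold no CACGTG. Of these genes, Psap, Lamp2 and Npc2 had their highest mean level in MOL2/4, as Lamp1 and Ctsd did. Ctsl, which holds a copy, had its highest in COP/NFOL, so the presence of CACGTG did not split the members by label. Over the 132 other genes of the 8 lysosomal, autophagy and cell death lists described further on that have a window, 37 (28.0%) hold CACGTG and 15 (11.4%) hold TCACGTGA. A match in these letters is a description of the sequence, and binding was not measured.

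The 2 libraries were alike in depth. TdTom+ cells held 7129294 UMIs in all with a median of 3340 per cell (1802 to 12138), and GFP+ cells held 3584940 with a median of 3307 (1577 to 12856), and 1 cell barcode was shared by both. Of 33 lineage markers in 6 classes, 26 were highest in a label of their own class, while 2 of 5 MOL5/6 markers, 2 of 5 MFOL markers, 2 of 7 COP/NFOL markers and 1 of 5 MOL2 markers were highest elsewhere. Microglial markers summed to 123 and 2 UMIs, of which 114 lay in 1 TdTom+ cell labelled MFOL2. At least 3 of 8 astrocyte markers were found in 108 cells, 45 of them among the 83 OPCs and 30 in MOL2b, and several of these markers are also known in OPCs. Endothelial markers summed to 10 and 7 UMIs, with no cell holding 3 of them, and 4 of 5 were rows of the matrix. Neuronal markers (4 of 5 rows) were highest in OPC, red blood cell markers (2 of 4 rows) summed to 116 and 60 UMIs, and pericyte and ependymal markers have no rows. Ctss is held by both the microglial list and the list of lysosomal proteases below.

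Dorsal and ventral OL lineage cells held the 9 genes at nearly the same levels. Tfeb stood at 36.5 CPM (32.2 to 41.2, 260 UMIs) in TdTom+ and 35.1 CPM (29.3 to 41.8, 126 UMIs) in GFP+ cells. Lamp1, a major glycoprotein of the lysosomal membrane, stood at 913 CPM (891 to 936) and 958 CPM (927 to 991). Ctsl, the cysteine protease cathepsin L, differed most, with 55.1 CPM (49.8 to 60.9) against 65.8 CPM (57.7 to 74.8). Between these fell Psap with 215 and 221 CPM, Ctsd with 96.4 and 110 CPM, Ctsb with 275 and 286 CPM, Lamp2 with 119 and 127 CPM, Cd63 with 248 and 246 CPM, and Npc2 with 348 and 374 CPM.

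On the log2 scale the TdTom+ over GFP+ ratios ran from -0.25 for Ctsl (interval -0.49 to -0.02) to 0.05 for Tfeb (-0.26 to 0.37). Their median was -0.07, beside 0.01 over the 2958 genes whose mean level reached 50 CPM. Of those 2958 genes 0.439% differed by 0.5 or more between the libraries, and 0 of the 8 members over 50 CPM did. Although the intervals of Ctsd, Ctsl, Lamp1 and Npc2 lay below 0, their level was lower in TdTom+ cells in 8, 6, 8 and 8 of the 12 labels, respectively. The libraries also differ in label mix, with MOL2/4 holding 60 of 1901 TdTom+ and 63 of 952 GFP+ cells. With both libraries at the mean of their label shares, the ratios of Ctsd, Ctsl, Lamp1 and Npc2 changed. They went from -0.19, -0.25, -0.07 and -0.11 to -0.13, -0.19, -0.03 and -0.06. Tfeb, Lamp2 and Cd63 did not move towards 0, with 0.07, -0.10 and -0.05. With 1 library each, a difference of this size between origins and one between 2 libraries of the same origin cannot be told apart.

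Within the lineage, by contrast, most members varied several-fold between labels (plot of levels by label). The label with the highest level was not the same in both libraries for Psap, Ctsd and Lamp2. The highest mean level over the lowest ranged from 2.89-fold for Lamp2 to 9.75-fold for Ctsl. Few neighbouring labels in the order of levels were further apart than their spread, taken as the gap between the 2 libraries and the overlap of the counting intervals. Of 11 neighbouring pairs, 3 were apart for Lamp1, 1 each for Ctsb, Ctsl, Cd63 and Npc2, and 0 for Tfeb, Psap, Ctsd and Lamp2. The order of most labels is therefore not resolved, and the text keeps to labels at the ends.

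**Figure D1:**
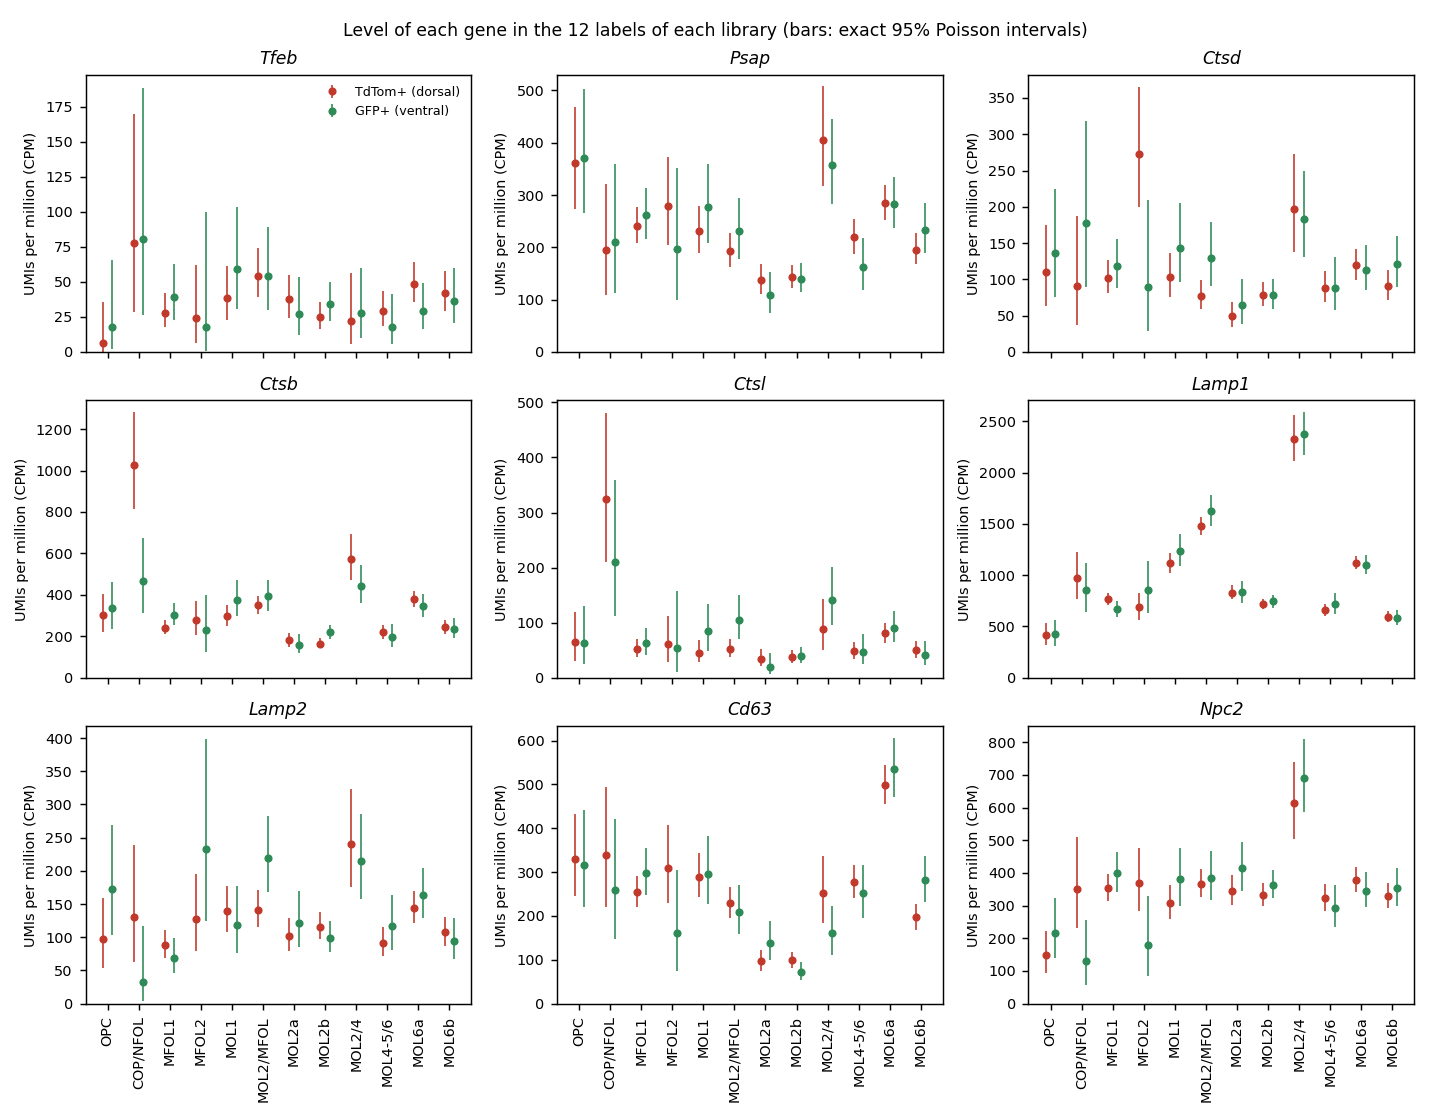
Level of each of the 9 genes (vertical axis, CPM) in the 12 labels (horizontal axis), with TdTom+ cells in red and GFP+ cells in green and bars for exact 95% Poisson intervals. Lamp1 and Npc2 peak in MOL2/4, Cd63 peaks in MOL6a with 498 and 536 CPM, Ctsb and Ctsl peak in COP/NFOL, and the high TdTom+ value of Ctsd in MFOL2 comes mostly from 1 cell.

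Lamp1 separated the labels most clearly. It stood at 2327 CPM (TdTom+) and 2376 CPM (GFP+) in MOL2/4, 1475 and 1625 CPM in MOL2/MFOL, 1117 and 1235 CPM in MOL1, and 1120 and 1100 CPM in MOL6a. The remaining labels lay lower, with 831 and 834 CPM in MOL2a, 721 and 744 CPM in MOL2b, 596 and 582 CPM in MOL6b, and 419 and 426 CPM in OPC. MOL2/4 was apart from MOL2/MFOL, MOL2/MFOL from MOL1, and MOL6b from OPC, while the 9 labels from MOL1 down to MOL6b formed a run without a gap. At these 3 gaps the 2 libraries of a label differed by less than the step.

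Lamp2, the related membrane glycoprotein that also serves chaperone-mediated autophagy, had its highest mean in MOL2/4 as well, with 241 and 215 CPM, although in GFP+ cells MFOL2 (233 CPM) and MOL2/MFOL (220 CPM) lay above it, and its lowest mean was in MFOL1 with 88.6 and 69.3 CPM, although in GFP+ cells COP/NFOL (32.3 CPM, 2 UMIs) lay lower. Npc2, the lumenal protein that hands cholesterol to NPC1, had 613 and 691 CPM in MOL2/4, apart from the next label, MOL2a, with 346 and 414 CPM. Its lowest mean was in OPC with 148 and 217 CPM, although in GFP+ cells COP/NFOL (129 CPM) and MFOL2 (179 CPM) lay lower, and without cells holding 3 astrocyte markers the lowest mean was in COP/NFOL. Both genes thus shared the label of their highest mean with Lamp1, and for Npc2 both libraries of MOL2/4 lay above every other label.

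Cd63, a tetraspanin of late endosomes, lysosomes and exosomes, followed another order. It was highest in MOL6a with 498 and 536 CPM, apart from the next label, OPC, with 329 and 317 CPM. Its lowest levels were in MOL2a with 96.5 and 139 CPM and in MOL2b with 98.4 and 72.6 CPM. In MOL2/4, where Lamp1 and Npc2 peaked, Cd63 stood at 252 and 160 CPM.

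Among the enzymes and their helpers, Psap, the precursor of the saposins that present sphingolipids to their hydrolases, had its highest mean in MOL2/4 with 405 and 357 CPM, followed by OPC with 361 and 371 CPM, which was the higher of these in GFP+ cells. It was lowest in MOL2a with 137 and 108 CPM. Ctsd, the aspartic protease cathepsin D, had 197 and 183 CPM in MOL2/4 and 48.9 and 64.4 CPM in MOL2a. Both thus had their highest and lowest mean in the same pair of labels, although Ctsd in TdTom+ cells was higher in MFOL2.

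The cysteine proteases Ctsb and Ctsl were both highest in COP/NFOL. Ctsb had 1027 CPM (TdTom+, 79 UMIs) and 469 CPM (GFP+, 29 UMIs) there and 575 and 444 CPM in MOL2/4. Ctsl had 325 CPM (25 UMIs) and 210 CPM (13 UMIs) in COP/NFOL, apart from its next label, MOL2/4, with 87.6 and 142 CPM. COP/NFOL holds 11 and 8 cells, so these are the levels of few cells, and for Ctsb the 2 libraries differed there by more than the step down to MOL2/4. Markers differed between the libraries of COP/NFOL too. Those of MFOL summed to 24537 (TdTom+) and 14088 CPM (GFP+), those of COP/NFOL to 5032 and 8184 CPM, and their part was not tested. Both proteases had their lowest mean in MOL2a, with 180 and 159 CPM for Ctsb and 34.6 and 20.3 CPM for Ctsl, although Ctsb in TdTom+ cells was lower in MOL2b (164 CPM).

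The level of Ctsd in MFOL2 rested largely on 1 cell. Ctsd stood at 273 CPM in the 47 TdTom+ cells of this label and at 89.5 CPM in the 19 GFP+ cells. The TdTom+ cell with 114 microglial marker UMIs (C1qa 20, C1qb 23, C1qc 16, Cx3cr1 18, Ctss 12, Csf1r 9, Aif1 2 and Tyrobp 14), of 4131 UMIs in all, held 25 of the 45 Ctsd UMIs, and the next highest cell of the label held 4. Without it Ctsd stood at 125 CPM (76.1 to 192). The same cell held 8 UMIs of Ctsb, 4 of Npc2, 2 each of Psap, Ctsl and Lamp1, 1 of Cd63 and 0 of Lamp2 and Tfeb, and no other cell held more than 1 microglial UMI.

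The lysosomal members were also compared between MOL2/4 and the other labels named for MOL2 alone, a contrast chosen after the levels had been seen. All 8 were higher in MOL2/4 than in MOL2a and MOL2b together, in both libraries. Lamp1 stood at 2327 against 763 CPM in TdTom+ cells, a log2 ratio of 1.61 (1.45 to 1.77), and the ratio in GFP+ cells was 1.63 (1.47 to 1.79). Ctsl had ratios of 1.25 and 2.02, Psap 1.52 and 1.44, Ctsb 1.75 and 1.12, Ctsd 1.54 and 1.29, and Lamp2 1.11 and 1.02. These 6 passed a log2 of 1 in both libraries, as did 3.14% of all genes in that direction and 9.2% in the other.

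Cd63, with 1.36 and 0.81, and Npc2, with 0.86 and 0.87, did not pass in both. Tfeb itself had ratios of -0.42 (-2.36 to 1.00) and -0.23 (-1.78 to 1.04), from 4 and 6 UMIs in MOL2/4. The median of the 9 genes was 1.42, while that of all genes tested was -0.26. Scaling the sums by the median of gene ratios instead of the total moved the split of all genes from 93 higher and 272 lower to 184 higher and 140 lower, and the number of members past the threshold from 6 to 8.

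**Figure D2:**
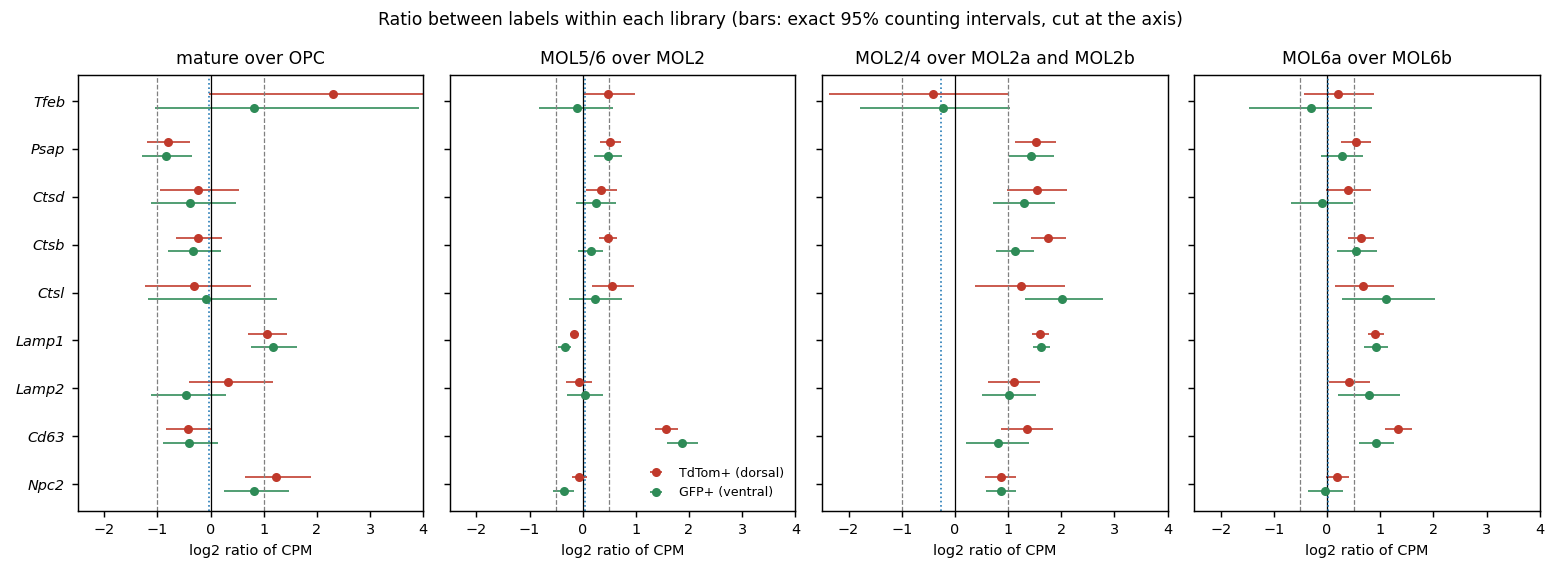
Log2 ratios of CPM (horizontal axis) of the 9 genes for 4 pairs of label groups, within TdTom+ cells (red) and GFP+ cells (green), with exact 95% counting intervals that are cut at the axis ends. Dashed lines mark the threshold of 1 or 0.5 and the dotted blue line the median of 2958 genes. The 8 lysosomal genes lie to the right of 0 in MOL2/4 over MOL2a and MOL2b, Cd63 stands alone past 0.5 in both libraries in MOL5/6 over MOL2, and the intervals of Tfeb are wide.

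The same cells, labels and genes were also described per cell at equal depth, which is no second test (plot of summed UMIs per cell). Cells were thinned to 2400 UMIs, which 1751 TdTom+ and 878 GFP+ cells reached while 150 and 74 were left out. In MOL2/4 the 8 genes gave a median of 11 UMIs per cell in both libraries (3 to 22 over 48 TdTom+ cells and 4 to 19 over 58 GFP+ cells), against a median of 4 in both MOL2a and MOL2b. The mean was 2.70 times that of MOL2a and MOL2b together in TdTom+ cells and 2.54 times in GFP+ cells. A Lamp1 UMI was present in 100% of the thinned MOL2/4 cells of either library, in 85.4% (TdTom+) and 78.5% (GFP+) of those of MOL2a, and in 82.6% and 82.1% of those of MOL2b.

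Lamp1 gave 40.2% and 40.1% of the UMIs of the 8 genes in the 2 libraries, so the sum leans on it. Before thinning, MOL2/4 cells had fewer UMIs (median 2757.5 and 3312) and fewer genes (1229.5 and 1317) than MOL2a cells (3962 and 4001 UMIs, 1708 and 1682 genes). Their 20 most abundant genes took 35.4% and 37.1% of UMIs, against 28.4% and 28.3% in MOL2a. The part of these differences in the ratios between CPM values was not tested. Microglial markers had 0 UMIs in MOL2/4 in both libraries. Neuronal markers summed to 181 and 174 CPM in MOL2/4 and to 54.1 to 93.7 CPM in MOL2a and MOL2b, astrocyte markers to 290 and 197 CPM against 190 to 480 CPM, and the part of these in the result was not tested. The 5 markers of MOL5/6 moved with the contrast too, summing to 25898 and 27258 CPM in MOL2/4 against 9242 to 10021 CPM in MOL2a and MOL2b, near the 28514 and 29708 CPM of MOL6a. The 7 COP/NFOL markers summed to 350 and 348 CPM in MOL2/4 against 173 to 203 CPM in MOL2a and MOL2b. The 5 MOL2 markers summed to 2240 and 4510 CPM in MOL2/4 and to between 2123 and 3469 CPM in MOL2a and MOL2b, so MOL2/4, which is counted with MOL2 below, held markers of several classes, and their part in the result was not tested.

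**Figure D3:**
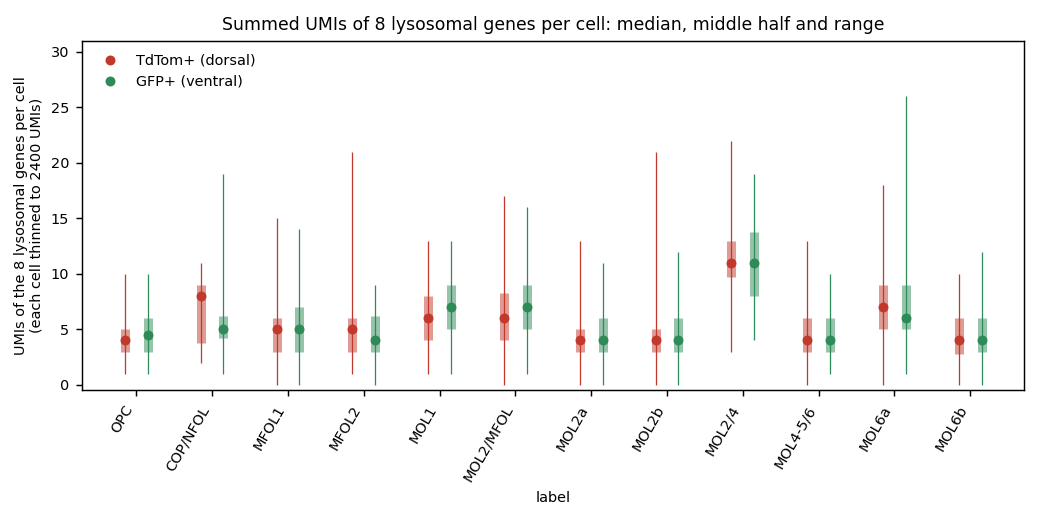
UMIs of the 8 lysosomal genes together per cell (vertical axis), each cell thinned to 2400 UMIs, by label and library, with the median as a point, the quartiles as a thick bar and the full range as a line. MOL2/4 stands at a median of 11 UMIs in both libraries, and MOL1, MOL2/MFOL and MOL6a stand at 6 to 7. COP/NFOL stands at 8 in 10 TdTom+ cells and at 5 in 8 GFP+ cells.

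MOL6a and MOL6b, which share a name, also differed, in a contrast likewise chosen after the levels had been seen. Cd63 was higher in MOL6a with log2 ratios of 1.34 (TdTom+) and 0.93 (GFP+), Lamp1 with 0.91 and 0.92, Ctsl with 0.68 and 1.11, and Ctsb with 0.63 and 0.55. These 4 passed 0.5 in both libraries, as did 7.61% of all genes in that direction and 1.22% in the other. Lamp2 had 0.42 and 0.78 and Psap 0.54 and 0.28, while Ctsd, Npc2 and Tfeb had ratios of opposite sign in the 2 libraries. MOL6a and MOL6b cells had similar depth, with medians of 3139.5 and 3014 UMIs against 2866.5 and 3027.5. The 5 MOL1 markers moved with this contrast, summing to 454 and 492 CPM in MOL6a against 120 and 114 CPM in MOL6b. Astrocyte markers summed to 152 and 165 CPM against 212 and 230 CPM, with at least 3 of them in 4 and 13 cells, and the part of these markers in the result was not tested.

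In mature OLs (the 7 MOL labels other than MOL2/MFOL) against OPCs, Lamp1 was the only member to pass a log2 of 1 in both libraries. Its level was 876 against 419 CPM in TdTom+ cells, with log2 ratios of 1.06 (0.71 to 1.44) and 1.18 (0.76 to 1.63). Among all genes 16.8% passed in this direction and 8.15% in the other, so 1 of 8 members is close to the background.

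Npc2 had ratios of 1.23 (0.64 to 1.90) and 0.82 (0.24 to 1.48), its intervals above 0 but the second short of the threshold, and without cells holding 3 astrocyte markers they were 1.09 and 0.38. Psap lay lower in mature OLs, with -0.80 (-1.19 to -0.38) and -0.84 (-1.30 to -0.34), and Cd63 had -0.43 and -0.40. The cathepsins had ratios between -0.38 and -0.09, all with intervals that span 0, and Lamp2 had 0.32 and -0.45. The median of the 9 genes was -0.21, beside -0.03 over all genes.

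The share of abundant genes and the markers of astrocytes and neurons moved with this comparison. Neuronal markers summed to 929 and 1177 CPM in OPCs and to 29.4 to 181 CPM in mature labels, and astrocyte markers to 1864 and 1793 CPM and to 119 to 480 CPM. The part of the neuronal markers was not tested. The 20 most abundant genes took 12.1% and 12.2% of UMIs in OPCs and 27.7% to 37.1% in mature labels, and left out of the total they turned the members' median to 0.11, shifted that of all genes to 0.28, turned the mean ratios of Ctsd, Ctsb, Ctsl and Lamp2 to 0.0058, 0.037, 0.11 and 0.25, and moved the split of calls from 498 higher and 241 lower to 640 and 122. Leaving out cells with at least 3 astrocyte markers, which kept 21 and 17 OPCs, gave a median of 0.07, and Lamp1 then had 1.22 and 1.52. Leaving out the 33 cells with over 3000 genes put Lamp1 at 0.99 and 1.17, below the threshold in TdTom+ cells.

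Between the mature groups on which the study centres, MOL5/6 (MOL4-5/6, MOL6a and MOL6b) and MOL2 (MOL2a, MOL2b and MOL2/4), Cd63 stood out. It had 334 CPM in MOL5/6 and 112 CPM in MOL2 in TdTom+ cells, and log2 ratios of 1.57 (1.37 to 1.80) and 1.86 (1.59 to 2.17). No other member passed 0.5 in both libraries, whereas 4.19% of all genes did in this direction and 5.48% in the other. Psap came nearest with 0.52 and 0.47, and Lamp1 and Npc2 lay slightly the other way, with -0.16 and -0.34 for Lamp1 and -0.07 and -0.36 for Npc2. Neuronal markers summed to 29.4 to 43.9 CPM in MOL5/6 labels and 54.1 to 181 CPM in MOL2 labels, and astrocyte markers to 152 to 230 and 190 to 480 CPM. Median UMIs were 2865 to 3139.5 in MOL5/6 labels, 3887.5 to 4261 in MOL2a and MOL2b, and 2757.5 and 3312 in MOL2/4. The part of these in the result was not tested.

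This comparison joins labels that differ among themselves. With MOL4-5/6 and MOL2/4 left out, so that MOL6a and MOL6b stood against MOL2a and MOL2b, 5 members passed 0.5 in both libraries: Cd63 (1.86 and 2.18), Psap (0.78 and 0.98), Ctsl (0.85 and 0.96), Ctsb (0.89 and 0.53) and Ctsd (0.65 and 0.65). Of all genes 5.14% passed in this direction and 5.85% in the other. Lamp1 turned to 0.20 and 0.16, higher in MOL6a and MOL6b, and Npc2 had 0.08 and -0.11. The median of the 9 genes then went from 0.29 to 0.65.

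Tfeb was sparse over the lineage. Of the 2853 cells 12.4% held a Tfeb UMI at full depth, none more than 2, and at 2400 UMIs per cell the share was 8.51% of TdTom+ cells (7.24 to 9.92, exact Clopper-Pearson interval) and 7.18% of GFP+ cells (5.56 to 9.09). Its level was highest in COP/NFOL with 78.0 and 80.9 CPM, from 6 and 5 UMIs in 11 and 8 cells. These cells are deeper than the rest, with medians of 8215 and 8212 UMIs, and at 2400 UMIs 4 of 10 TdTom+ and 1 of 8 GFP+ cells (12.5%) held a Tfeb UMI, the latter beside 13.1% of GFP+ MOL2/MFOL cells. MOL2/MFOL had 54.5 CPM (39.1 to 74.0) and 54.0 CPM (30.2 to 89.1). No neighbouring labels in the order of Tfeb levels were apart.

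OPCs had the lowest mean level of Tfeb over the libraries, 6.45 CPM from 1 UMI in 48 TdTom+ cells and 18.1 CPM from 2 UMIs in 35 GFP+ cells, although in GFP+ cells MOL4-5/6 (17.7 CPM) and MFOL2 (17.9 CPM) were as low. All 3 of these UMIs lay in cells with at least 3 astrocyte markers, and the 21 and 17 OPCs without them held 0. At the thinned depth 0 of 71 OPCs held a Tfeb UMI, which allows a share of up to 4.23% by 3 counts and 5.06% by the exact interval, against 9.61% (exact interval 6.12 to 14.2) of 229 MOL2/MFOL cells. These shares pool the cells of both libraries, which are no replicates, and MOL2/MFOL has the second highest mean level of Tfeb. No label is known to lack Tfeb, so the level that free RNA alone would give was not measured. The mature over OPC ratio was 2.31 (-0.02 to 7.79) in TdTom+ and 0.81 (-1.05 to 3.91) in GFP+ cells, and neither interval excludes equal levels.

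**Figure D4:**
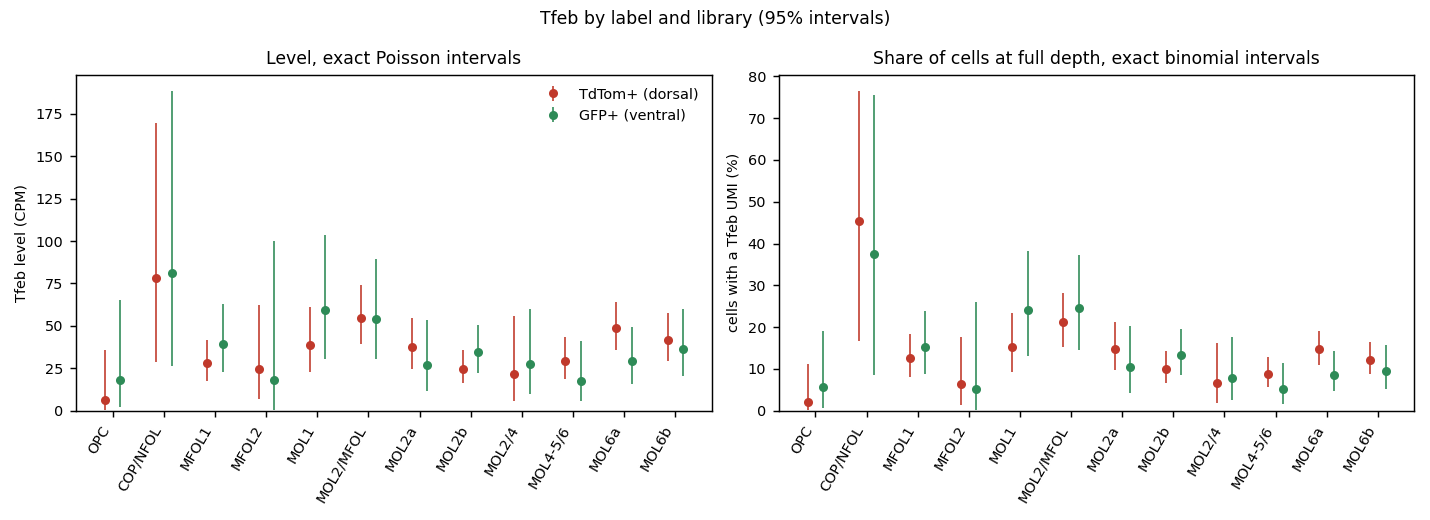
Tfeb by label in TdTom+ (red) and GFP+ (green) cells, as the level in CPM with exact Poisson intervals (left) and as the share of cells with at least 1 Tfeb UMI at full depth with exact binomial intervals (right). COP/NFOL, whose cells hold a median of 8215 and 8212 UMIs, has the highest point of both at this depth, OPC the lowest level in TdTom+ cells with 6.45 CPM, and most intervals overlap.

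The relatives of Tfeb were sparse as well. Tfe3 had 119 and 56 UMIs in the 2 libraries (16.7 and 15.6 CPM) and Mitf 157 and 70 (22.0 and 19.5 CPM), and Tfec is no row of the matrix. In COP/NFOL, where Tfeb was highest, Mitf had 3 UMIs in each library and Tfe3 had 0 and 2. Bbc3, the PUMA gene, had 4 UMIs in the 11 TdTom+ and 1 UMI in the 8 GFP+ cells of COP/NFOL, of 64 and 25 UMIs in all.

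Bbc3, whose level is under the 50 CPM asked of called genes, had few UMIs in MOL2. MOL5/6 held 40 and 12 Bbc3 UMIs and MOL2 held 3 and 1, a ratio of plain CPM values, with no 1 added, of 9.95 (3.17 to 50.3) and 13.0 (1.92 to 556). With 1 added to each CPM, as elsewhere, the log2 ratios were 2.67 and 2.65. Tfeb in the same comparison had 109 against 58 UMIs in TdTom+ and 34 against 40 in GFP+ cells, with log2 ratios of 0.47 (0.02 to 0.97) and -0.11 (-0.82 to 0.58).

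Lysosomal totals of cells with and without a Tfeb UMI were close in TdTom+ cells, and higher with one in GFP+ cells. At the thinned depth the 8 genes summed to 2246 CPM (2093 to 2406) in 149 TdTom+ cells with a Tfeb UMI and 2230 CPM (2183 to 2277) in 1602 without. In GFP+ cells the sums were 2612 CPM (2361 to 2883) in 63 cells and 2352 CPM (2285 to 2421) in 815 cells. The intervals overlapped in both libraries, which does not show that the totals are equal. Labels were pooled here, and the part of their mix was not tested. A cell without a Tfeb UMI may still express the gene.

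Over the 24 values of 12 labels and 2 libraries, the closest pair of members was Ctsb and Ctsl, with Pearson's r of 0.91 on the log2(CPM + 1) scale, followed by Psap and Ctsd with 0.76. Lamp1 was closest to Npc2 with 0.62. Cd63 was close to Psap (0.65) and not to Lamp1 (-0.02), and Tfeb reached at most 0.42, with Ctsl. The genes most like the sum of the 8 lysosomal genes, among all that reached 50 CPM, were Tecr (0.88), Saraf (0.87), Tmem59 (0.87), Emc7 (0.84) and Cd81 (0.81). Over the 20 values without OPC and COP/NFOL the order of member pairs changed. Psap and Ctsb, with 0.55 over the 24 values, then had 0.88, beside 0.87 for Ctsb and Ctsl and 0.84 for Psap and Ctsd.

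For single members the leading genes were Bcap31 (0.92), Rtn3 (0.90) and Derl1 (0.88) for Lamp1, Atp6ap2 (0.82), Tmbim6 (0.80) and Enpp5 (0.80) for Lamp2, and Ckb (0.80), Cd9 (0.74) and Timp2 (0.73) for Cd63. For Npc2 they were Hiat1 (0.86), Ank (0.85) and Tmcc1 (0.83), for Psap Laptm4b (0.82), Ckb (0.77) and Ctsd (0.76), and for Ctsd Psap (0.76), Atraid (0.70) and Hspa5 (0.70). Ctsb was most like Ctsl (0.91), Cd81 (0.84) and Tmem59 (0.83), and Ctsl was most like Ctsb (0.91), Glrb (0.83) and Sirt2 (0.82). These values share their libraries and totals, and 7 of the 29 leading places kept their gene when OPC and COP/NFOL were left out. Across single cells of 1 library at 2400 UMIs, the 36 pairs of members had correlations between -0.03 and 0.12 in TdTom+ and between -0.04 and 0.13 in GFP+ cells, which in counts this sparse is no finding.

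To see whether other lysosomal genes varied alike, 8 lists with 175 genes were followed, of which 168 are rows of the matrix and 65 reached 50 CPM, 8 members among them. None of the 65 differed by 0.5 between the libraries. Among the 57 genes that are no members, 6 passed a log2 of 1 higher in MOL2/4 than in MOL2a and MOL2b and 2 lower. These are 10.5% and 3.51%, beside 3.14% and 9.2% of all genes at the same scaling. Of the 6, 5 belong to the lists of lysosomal proteases, hydrolases and membrane proteins, in which 16 genes other than the members reached 50 CPM. These 5 are the proteases Lgmn (2.19 and 1.85) and Ctsz (1.65 and 1.83), the fucosidase Fuca1 (1.12 and 1.61), the membrane protein Laptm4a (1.46 and 1.07), and Scarb2 (1.21 and 1.24), the receptor that carries glucocerebrosidase to lysosomes. The sixth was Atp6ap2 (1.77 and 1.54), an accessory subunit of the proton pump.

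The median log2 ratio was 0.62 over those 16 genes, 0.27 over 14 V-ATPase genes and -0.15 over 7 genes of sorting to lysosomes. It was -0.48 over 8 genes of mTORC1 control and -0.60 over 10 autophagy genes, beside -0.26 over all genes tested. The TFEB family, which shares a list with mTORC1 control, had no gene that reached 50 CPM. Among autophagy genes 1 of 10 was called lower and among the mTORC1 control genes 1 of 8, shares close to the background. Ppt1, a lysosomal thioesterase, had 0.97 and 0.96, and Ctsk, a protease, had -0.41 and -2.22. Among autophagy genes Gabarapl1 was lower with -1.62 and -1.79, and Gabarap had -0.90 and -1.43 and Map1lc3b -0.61 and -0.80, all of which encode proteins of the autophagosome membrane. The other gene called lower was Lamtor4 (-1.81 and -1.37), of the complex that anchors mTORC1 to the lysosome. Among its partners Lamtor1 had -0.17 and -0.63, Lamtor2 -0.90 and -1.12 and Lamtor5 -0.93 and -1.31.

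**Figure D5:**
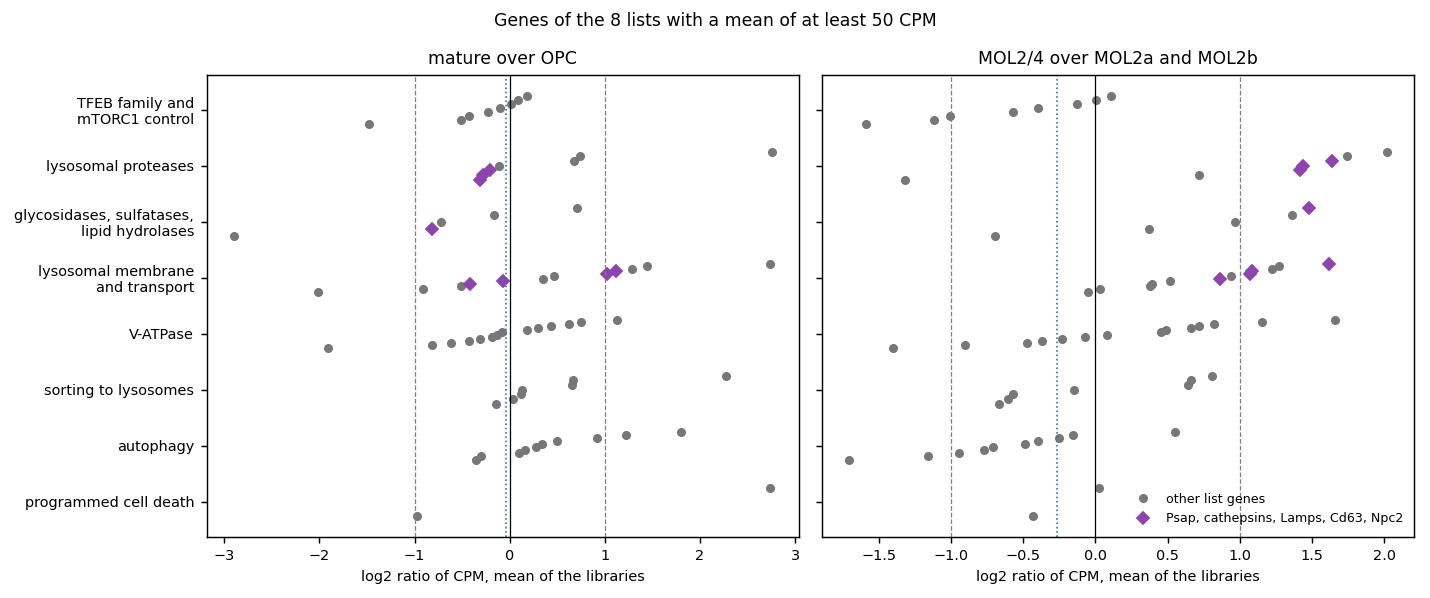
Log2 ratio of CPM (horizontal axis, mean of both libraries) of the list genes with at least 50 CPM, 1 point a gene and 1 row a list, for mature OLs over OPCs and for MOL2/4 over MOL2a and MOL2b, with the 8 lysosomal members as purple diamonds. Dashed lines mark a log2 of 1 and -1 and the dotted blue line the median of all genes tested. The members gather at 0.86 to 1.64 in the right panel, where autophagy genes lie mostly below 0.

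Between mature OLs and OPCs the lists moved in both directions, with 7 of the 57 other genes higher and 4 lower. Higher in mature OLs were the transporter Abca2 (2.73 and 2.73), Ctsk (3.01 and 2.50), the sorting receptor Sort1 (2.68 and 1.87), Tmem192 (1.48 and 1.10), Wipi1 (1.57 and 2.04), Gabarapl2 (1.34 and 1.11) and the survival gene Bcl2l1 (3.84 and 1.63). Lower were Gm2a (-2.93 and -2.87), the activator of ganglioside breakdown, Laptm4a (-2.41 and -1.62), Atp6v0e (-2.03 and -1.78) and Rheb (-1.31 and -1.64), the GTPase that activates mTORC1. These counts, 12.3% and 7.02%, stand beside the 16.8% and 8.15% of all genes.

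Other list genes named for their abundance had smaller ratios than Abca2, Sort1 and Bcl2l1, which are also among the most abundant of their lists. Atp6v0b and Atp6v1g1 of the V-ATPase had mean log2 ratios of -0.18 and 0.29, Rab7 of late endosomes 0.13, Npc1, the partner of Npc2, 0.47, Lamtor1 0.09, Gabarap 0.34 and Map1lc3b 0.10. Ppt1 had -0.72, Fuca1 -0.17, Lgmn 0.67, Ctsa 0.74 and Bax, which promotes cell death, -0.98.

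In MOL5/6 against MOL2, 1 of the 57 genes was called higher, Sqstm1 (0.73 and 0.79), the cargo receptor p62 of autophagy, and 1 lower, Ctsk (-0.53 and -1.15). In MOL6a against MOL6b 3 were higher, Lgmn (0.95 and 0.77), Rab7 (0.93 and 0.85) and Atg3 (1.25 and 0.80), and 0 lower. These shares of the 57 genes, 1.75% and 1.75% in the first comparison and 5.26% in the second, lie below the 4.19%, 5.48% and 7.61% of all genes. Lgmn was called with Ctsb and Ctsl in MOL2/4 and in MOL6a, but had -0.16 and -0.51 in MOL5/6 over MOL2, and 0.33 and 0.07 in MOL6a and MOL6b over MOL2a and MOL2b. In COP/NFOL, where Ctsb and Ctsl were highest, Lgmn stood at 325 and 259 CPM, above its 219 and 188 CPM in MOL2/4.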

How the data were processed

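The authors aligned reads with STAR, and the submitters' processing notes name Cell Ranger 2.1.1 and mm10. The annotation is not given in the sources used here. Both libraries were integrated by the authors, who clustered the cells and transferred labels from an earlier data set. The deposited values are a signal, the UMIs of a gene divided by the total of its cell, and the deposited table of cells gives library, label and total UMI count (37 other columns were not used). Division by each cell's smallest value returned whole counts for 100% of values above 0 (within 0.01). The stated limits were 200 to 3000 genes, yet 33 cells exceed 3000. UMIs were summed per label and library (scipy 1.17.1 and numpy 2.4.6 under Python 3.11.15) and given as CPM. Ratios are of CPM + 1 on the log2 scale, called past the stated threshold in both libraries among genes whose mean level reached 50 CPM. Doublets were not called. Intervals are exact at 95%, and a count of 0 allows up to 3 counts. The ratio code was tested on simulated data. Members, lists and contrasts were chosen with earlier results of these data known. Named list genes are the 2 of highest CPM in each list, those of highest and lowest mature over OPC and MOL5/6 over MOL2 ratio, and the 5 (sum) or 3 (member) most alike genes. Scarb2, Tmem192, Gabarapl2, Lamtor4 and Atg3, and members' values in other contrasts, were picked after their values were seen. Alternatives changed cells, scaling, filter, pseudocount, label groups and thinning.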

Additional observations from a re-analysis of the deposited data

Results flagged for a closer look

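Lamp2 had a mature over OPC log2 ratio of 0.32 in TdTom+ cells and -0.45 in GFP+ cells, and was listed because the signs are opposite. It was also of opposite sign in MOL5/6 over MOL2, with -0.074 and 0.041. Tfeb had a MOL5/6 over MOL2 log2 ratio of 0.47 in TdTom+ and -0.11 in GFP+ cells. With 1 library per origin none of these differences between origins was tested, and the intervals of the 2 libraries overlapped in each case. Among markers from outside the OL lineage, 114 UMIs of microglial ones lay in 1 TdTom+ cell labelled MFOL2. Leaving this cell out took Ctsd in the TdTom+ cells of that label from 273 to 125 CPM, and whether it is a doublet was not tested.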

How the results depend on the processing

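No paired analysis was possible because each origin has 1 library. The median mature over OPC log2 ratio of the 9 genes (-0.21) was 0.072 without cells holding at least 3 astrocyte markers, -0.074 as the mean of each cell's CPM, 0.11 without the 20 genes with most UMIs and -0.33 in the GFP+ library alone. The members called there (1, Lamp1) were 0 within 200 to 3000 genes, and 2 (Lamp1 and Npc2) without those 20 genes or in the TdTom+ library alone, where 20.6% of all genes were called higher. For MOL5/6 over MOL2, MOL6a and MOL6b over MOL2a and MOL2b gave a median of 0.65 in place of 0.29 and 5 calls in place of 1, and the TdTom+ library alone gave 3 (Psap, Ctsl and Cd63), where 5.78% of all genes were called higher. The share of cells with a Tfeb UMI (8.06%) was 12.4% without thinning, 5.12% at 1500 UMIs and 0.342% for at least 2 UMIs. Alternatives for MOL2/4 and MOL6a were chosen after seeing the data: scaling by the median of gene ratios gave medians of 1.66 (from 1.42) and 0.56 (from 0.59), and leaving out the 20 genes gave 0.55 for MOL6a. Of 216 log2 ratios of single members under the alternatives 31 moved, and 13, none of them called, changed sign, in 8 of 27 ratios with main sizes up to 0.31 (Ctsd, Ctsb, Ctsl and Lamp2 in mature over OPC, Lamp1 and Lamp2 in MOL5/6 over MOL2, Psap and Cd63 between the libraries), and the highest label stayed the same for 9 of 9 members under the 4 alternatives run on levels. Tfeb and the labels OPC and COP/NFOL are limited by few UMIs. The causes were not tested.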
